A study of Homo sapiens with 7 samples.

Results

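HOXB13 acetylated at lysine 13 (HOXB13-K13ac) was mapped in a prostate cancer line, and 7 stretches of the genome known for inherited prostate cancer risk signals, named for RFX6, MSMB, JAZF1, MLPH, MYEOV, TET2 and SOX9, were examined in the peak lists. The lists come from chromatin immunoprecipitation and sequencing with an antibody against HOXB13-K13ac. Members were all peaks sharing at least 1 bp with 1 of 7 windows set on the hg19 build. Of 148463 peaks in 6 lists, 115 did so. The windows covered 2.33 Mb, which is 0.0777% of the 2999.12 Mb between the outermost peaks of each chromosome. Merging the peaks of the 3 replicate lists wherever they shared sequence gave 54 regions in the windows, of 65675 in all. A merged region with peaks of at least 2 of the 3 libraries is called a replicated site, and 20 of the 54 regions were replicated sites.

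The windows are RFX6 at chr6:117150001-117300000, MSMB at chr10:51500001-51600000, JAZF1 at chr7:27860001-28230000, MLPH at chr2:238350001-238500000 and MYEOV in band 11q13 at chr11:68900001-69100000. The TET2 window is chr4:106000001-106210000, and the longest, chr17:69000001-70150000, runs through the gene desert of band 17q24 to SOX9.

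Cells were C4-2B, an established castration-resistant line derived from LNCaP, kept in DMEM with charcoal-stripped fetal bovine serum and given no treatment. The 7 libraries are 3 HOXB13-K13ac precipitations, 2 IgG precipitations and 2 inputs. All come from 1 cell line in 1 growth condition, and no label gives an altered genotype. HOXB13-K13ac replicate 1 was called against a control that is not named, and replicates 2 and 3 each against input and against IgG. A sixth list, called against input, is tied to no library by its label, and each list is described on its own. Nothing in the labels says that the replicates were separate cultures, and read depth is unknown, since the lists carry no reads.

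HOXB13 is a homeobox transcription factor that marks the prostate lineage and can bind chromatin together with the androgen receptor and forkhead factors. Most inherited prostate cancer risk signals lie in noncoding sequence, and many fall in enhancers active in prostate epithelium. A peak here means that DNA at that place was enriched with the HOXB13-K13ac antibody. It does not say which gene is affected, and no allele was read.

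The genes differ widely in function. RFX6 encodes a winged-helix transcription factor of pancreatic islet development, and its risk locus is known for HOXB13 binding at a risk allele. MSMB encodes beta-microseminoprotein, a major protein secreted by prostate epithelium, and lies beside NCOA4, a coactivator of the androgen receptor. JAZF1 encodes a zinc finger corepressor, and MLPH encodes melanophilin, which links RAB27A on vesicles to myosin Va. MYEOV is a gene named for overexpression in myeloma and neighbours CCND1, the cyclin D1 gene. TET2 oxidises 5-methylcytosine in DNA, and SOX9 is an HMG-box transcription factor needed for cartilage, testis and early prostate bud growth. Neighbours were read from RefSeq on GRCh38.p14 by gene order only.

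Sites of all 3 libraries fell in the windows of MSMB, MLPH and TET2. RefSeq promoters, 250 bases before each annotated start on GRCh38.p14, were present for MLPH and TET2, with an upstream and a downstream start each, and are printed here 5′ to 3′ as the reference sequence at the genes these sites are named for. All 4 are on the + strand, at chr2:237486160-237486409 and chr2:237487001-237487250 for MLPH and at chr4:105145625-105145874 and chr4:105146626-105146875 for TET2. Capitals mark AGAACA, a single arm of the palindromic element bound by the androgen receptor.
MLPH upstream start: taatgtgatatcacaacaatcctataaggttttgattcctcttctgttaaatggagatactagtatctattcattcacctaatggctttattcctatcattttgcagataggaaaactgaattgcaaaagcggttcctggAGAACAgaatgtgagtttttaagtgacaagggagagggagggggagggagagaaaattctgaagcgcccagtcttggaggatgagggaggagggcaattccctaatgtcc
MLPH downstream start: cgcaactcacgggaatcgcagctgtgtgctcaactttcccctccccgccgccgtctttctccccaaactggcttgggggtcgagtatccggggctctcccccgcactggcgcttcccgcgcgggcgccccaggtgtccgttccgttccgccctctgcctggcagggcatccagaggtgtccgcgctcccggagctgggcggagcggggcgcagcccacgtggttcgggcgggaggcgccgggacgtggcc
TET2 upstream start: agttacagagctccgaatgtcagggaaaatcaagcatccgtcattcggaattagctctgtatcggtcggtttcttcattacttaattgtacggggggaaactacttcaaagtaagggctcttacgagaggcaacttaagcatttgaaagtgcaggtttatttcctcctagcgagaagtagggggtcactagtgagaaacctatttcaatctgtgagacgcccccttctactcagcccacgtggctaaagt
TET2 downstream start: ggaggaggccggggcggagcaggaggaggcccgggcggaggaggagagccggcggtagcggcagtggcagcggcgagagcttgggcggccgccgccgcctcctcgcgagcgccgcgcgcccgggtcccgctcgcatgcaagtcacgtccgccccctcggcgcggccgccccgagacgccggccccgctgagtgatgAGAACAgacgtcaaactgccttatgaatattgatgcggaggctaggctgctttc
Whether a peak covers any of these promoters was not determined, because the peaks are on hg19 and the promoters on GRCh38.p14. The GC content was 41.6% and 72.4% at the upstream and downstream starts of MLPH, and 45.6% and 72.8% at those of TET2. AGAACA was searched on both strands and had 1 match in the upstream MLPH promoter, at bases 141 to 146, and 1 in the downstream TET2 promoter, at bases 197 to 202. It was found in 12.4% of 35116 promoters of the same length. The HOXB13 motif CAATAAA, held by 3.67% of those promoters, and the forkhead motif TGTTTAC, held by 2.98%, had 0 matches in the 4 sequences on either strand. No match overlapped another, and a match describes letters, not binding.

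In total the windows held about as many peaks per megabase as the rest of the genome, but the peaks were concentrated at MLPH. Replicate 1 had 27 peaks in the 7 windows, replicate 2 against input 35 and replicate 3 against input 19. In replicate 1 this was 11.6 peaks per Mb (exact 95% Poisson interval 7.64 to 16.9), against 13.8 over the whole list. In replicate 2 it was 15.0 per Mb (10.5 to 20.9), against 15.1, and in replicate 3 it was 8.15 per Mb (4.91 to 12.7), against 6.08. All 3 intervals held the density of the whole list. Such intervals hold counting error alone, while peaks next to each other are not independent counts. The list tied to no library had 24 peaks in the windows, 10.3 per Mb (6.60 to 15.3), against 12.1. Replicate 2 against IgG had 10, or 4.29 per Mb (2.06 to 7.89), against 2.50 over its 7506 peaks. Replicate 3 against IgG held 1 peak in all and 0 in the windows.

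MLPH, which is 150 kb of the 2.33 Mb, held 16 of the 27 peaks of replicate 1, 15 of the 35 of replicate 2 and 3 of the 19 of replicate 3. Its density was 106.7 peaks per Mb in replicate 1 (61.0 to 173), against 13.8 over the whole list. In replicate 2 it was 100 per Mb (56.0 to 165), against 15.1. Both intervals lay above the density of the whole list. In replicate 3 the MLPH window had 20 peaks per Mb (4.12 to 58.4), and that interval held the 6.08 of the whole list. Peaks covered 7.69% of the MLPH window in replicate 1 and 8.99% in replicate 2, against 0.981% and 1.27% of the genome.

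**Figure D1:**
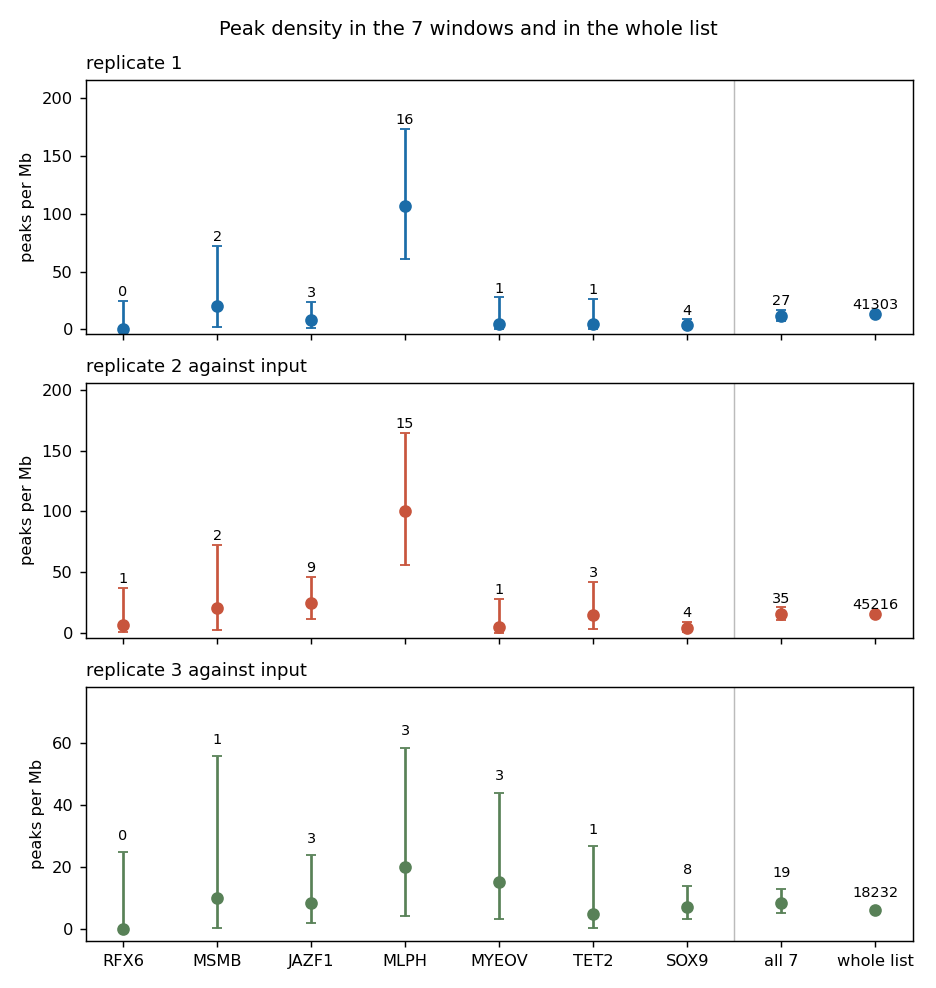
Peaks per Mb (vertical axis; its scale differs between panels) in each of the 7 windows, in all 7 together and in the whole list, for the 3 replicate lists. Points are densities, bars are exact 95% Poisson intervals, and the number above each point is the number of peaks. MLPH stands highest in replicates 1 and 2, with 16 and 15 peaks, while the points for all 7 windows lie near those of the whole lists.

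The other 6 windows held between 0 and 9 peaks in each replicate list. Replicate 1 had 0 in RFX6, 2 in MSMB, 3 in JAZF1, 1 in MYEOV, 1 in TET2 and 4 in SOX9. Replicate 2 against input had 1 in RFX6, 2 in MSMB, 9 in JAZF1, 1 in MYEOV, 3 in TET2 and 4 in SOX9. Replicate 3 against input had 0 in RFX6, 1 in MSMB, 3 in JAZF1, 3 in MYEOV, 1 in TET2 and 8 in SOX9. Per Mb, MLPH was the highest window in each of the 3 lists. In replicate 3 this rested on 3 peaks, 1 of which had its summit past the window end. Counted by summits, MLPH would stand below MYEOV in that list, and the intervals of the 2 windows overlapped. JAZF1 in replicate 2 had 24.3 peaks per Mb (11.1 to 46.2), against 15.1 over the list. MYEOV in replicate 3 had 15 per Mb (3.09 to 43.8), against 6.08, and both intervals held the density of the whole list. At SOX9 the densities of replicates 1 and 2 were both 3.48 per Mb (0.948 to 8.91), with intervals below the density of the whole lists, while replicate 3 had 6.96 per Mb (3.00 to 13.7), against 6.08. RFX6 in replicate 1 had 0 peaks with an upper bound of 24.6 per Mb, so a density like that of the whole list could not be told from 0 in a window of this length.

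Peak strength was described by the authors' fold enrichment at the summit over the control of each list, which ranks peaks only within a list. The median fold in the windows was 4.24 in replicate 1, against 4.67 over its whole list. It was 5.82 against 6.50 in replicate 2, 4.25 against 4.40 in replicate 3, and 6.81 against 6.39 in the list tied to no library. In replicate 2 against IgG it was 3.08, against 3.10. Each of these medians lay between the quartiles of its whole list. The strongest 10% of each list by fold held 5 of the 27 window peaks of replicate 1 (18.5%, exact 95% binomial interval 6.30 to 38.1), 4 of the 35 of replicate 2 (11.4%, 3.20 to 26.7) and 0 of the 19 of replicate 3 (upper bound 17.6%). In the list tied to no library it held 3 of 24 (12.5%, 2.66 to 32.4), all at MLPH, and in the IgG list 0 of 10. Of the 9 peaks of replicates 1 and 2, 7 lay at MLPH, 1 at TET2 in replicate 1 and 1 at SOX9 in replicate 2.

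The highest fold of the windows was at MLPH in all 5 lists with peaks there. It was 17.8 in replicate 1, 26.8 in replicate 2 against input, 5.40 in replicate 3 against input, 21.5 in the list tied to no library and 4.57 in replicate 2 against IgG. Replicate 1 had its maximum at the site starting at 238383521, and the other 4 lists had theirs at the site starting at 238395631. Median widths in the windows lay between the quartiles of the whole list in these 5 lists. The median was 525 bp in replicate 1, against 555 bp over its list, 708 bp in replicate 2, against 635 bp, and 202 bp in replicate 3, against 235 bp. In the list tied to no library it was 766.5 bp, against 588 bp, and in replicate 2 against IgG 443.5 bp, against 427 bp. Of the 27 window peaks of replicate 1, 22 had a −log10 q of 5 or more (81.5%, 61.9 to 93.7), against 80.7% of its list. The same held for 23 of 35 in replicate 2 (65.7%, 47.8 to 80.9), against 67.2%, and for 0 of 19 in replicate 3 (upper bound 17.6%), against 6.28%. The window shares thus lay near those of their own lists.

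Of the 54 merged regions in the windows, 20 were replicated sites (37.0%, exact 95% binomial interval 24.3 to 51.3), against 41.2% of all 65675 merged regions. Peaks of all 3 libraries were present in 4 of 54 (7.41%, 2.06 to 17.9), against 6.99% of all regions. Both shares were near those of all merged regions, which lay within their intervals. Per window, MLPH had 11 replicated sites among 19 regions, JAZF1 3 among 12, SOX9 3 among 13, MSMB 1 among 2, TET2 1 among 3, MYEOV 1 among 4 and RFX6 0 among 1. Of the 20 sites, 16 (80.0%, 56.3 to 94.3) had peaks of replicates 1 and 2 alone, against 82.0% of all replicated sites. Regions of replicate 1 alone were 5 of 54 (9.26%, 3.08 to 20.3), against 14.3% of all merged regions. Those of replicate 2 alone were 14 (25.9%, 15.0 to 39.7), against 25.4%, and those of replicate 3 alone 15 (27.8%, 16.5 to 41.6), against 19.2%. Each of these intervals held the share of the whole genome. With MLPH the windows had 8.58 sites per Mb (5.24 to 13.3), against 9.02 in the genome, and without it 9 sites in 2.18 Mb, or 4.13 per Mb (1.89 to 7.84).

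Replicate 1 peaks of the windows were mostly present in replicate 2, and replicate 3 peaks were mostly alone. Of the 27 replicate 1 peaks, 22 shared sequence with a replicate 2 peak (81.5%, 61.9 to 93.7), against 76.9% over the list. In the other direction it was 21 of 35 (60.0%, 42.1 to 76.1), against 62.9%. Of the 19 replicate 3 peaks, 4 shared sequence with a peak of replicate 1 or 2 (21.1%, 6.05 to 45.6), against 30.8% over the list. All 3 shares held the value of the whole list within their intervals. As labelled, replicate 1 belongs to library series 2898 and replicates 2 and 3 to 3047, but the lists of replicates 1 and 3 are told apart only by 1 character in the labels. If they were exchanged, the pair that shares most peaks would come from the same series, so library series and the sharing of peaks cannot be told apart here. As labelled, the pair within a series, replicates 2 and 3, shared 4 of the 54 regions. Replicates 1 and 3, from different series as labelled, shared the same 4. Of the 19 replicate 3 peaks, 4 (21.1%) shared sequence with a replicate 2 peak, against 29.6% over the list. With replicate 1 it was also 4 (21.1%), against 29.7%.

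All 20 replicated sites hold a replicate 2 peak against input, and some also hold one against IgG. Replicate 2 peaks called against IgG lay in 8 of the 20 replicated sites (40%, 19.1 to 63.9). This interval held the share of all replicated sites, 23.2%. With a q of 0.05 or less in that list, 1 of the 20 had such a peak (5%, 0.127 to 24.9), against 5.55%. The 8 sites were 5 at MLPH and 1 each at MSMB, TET2 and SOX9, and the 1 with q of 0.05 or less was the MLPH site starting at 238395631, with a −log10 q of 1.92. The list tied to no library had peaks in 16 of the 20 sites (80.0%, 56.3 to 94.3), against 86.9%. The 4 sites without one were 2 at JAZF1, 1 at MLPH and 1 at MYEOV.

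MLPH held the densest set of sites. Its 11 replicated sites correspond to 73.3 per Mb (36.6 to 131), against 9.02 in the genome. When each chromosome was divided into consecutive stretches of 150 kb, 187 of 19982 (0.936%) held at least 11 sites, and the median stretch held 0. These stretches do not avoid assembly gaps, and the windows were chosen with earlier results of these data known, so the share is a description. The sites lay in 3 runs with gaps of 10 kb or less. The first run had 4 sites over 15.5 kb from 238383521 to 238399052, the second 3 sites over 8.05 kb from 238410515 to 238418565, and the last 5 sites over 23.7 kb from 238480603 to 238504277. The last run goes on past the window, where 1 of its 5 sites lies. It is the 1 cluster of at least 5 sites among the 3 runs at MLPH. The other windows, with 0 to 2 runs each, had no such cluster. In the genome, 448 of 17037 runs were such clusters. A stretch of 62.0 kb without a replicated site separated the second and last runs. Within the MLPH window the median gap between neighbouring sites was 5.55 kb, against 24.3 kb in the genome.

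**Figure D2:**
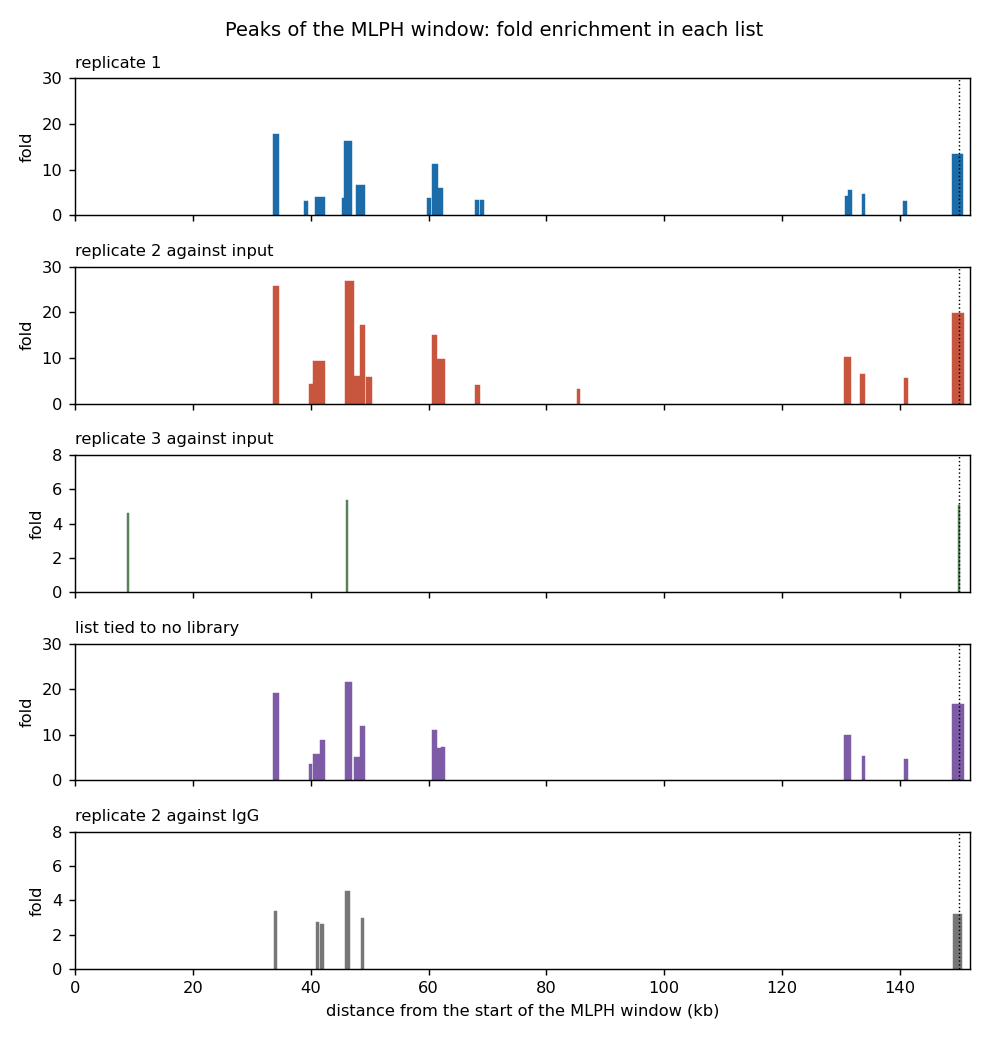
Peaks of the MLPH window in the 5 lists with peaks there, drawn at their position and width in kb from the window start (horizontal axis) and with the authors' fold enrichment as height (vertical axis; its scale differs between panels). The dotted line is the window end. Replicates 1 and 2 and the list tied to no library share tall peaks near 34, 46, 61 and 149 kb, and replicate 3 has 3 narrow peaks.

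The strongest MLPH site by its lower fold, chr2:238383521-238384495, had a fold of 17.8 in replicate 1 and 25.9 in replicate 2, and no replicate 3 peak. These values put it in the top 1.39% and 3.75% of the lists. The list tied to no library gave it 19.3, and replicate 2 against IgG 3.40 with a −log10 q of 0.414. The site was thus strong in replicates 1 and 2 and in the list tied to no library, and replicate 3 lacked it.

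The site chr2:238395631-238397128 was present in every list that had peaks in the window. Its fold was 16.2 for replicate 1, 26.8 for replicate 2 and 5.40 for replicate 3, which put it in the top 2.36%, 3.39% and 17.1% of those lists. It had 21.5 in the list tied to no library and 4.57 against IgG. The summits of replicates 1 and 2 lay 23 bp apart.

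The other MLPH site of all 3 libraries, chr2:238498789-238500790, crossed the window end by 0.79 kb. Its fold was 13.3 for replicate 1, 19.95 for replicate 2 and 5.07 for replicate 3, with 16.7 in the list tied to no library and 3.20 against IgG. The summits of the 3 libraries lay past the window end, so it belongs to the window by its flank. When membership went by summits, the windows held 19 replicated sites and 3 of all 3 libraries.

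The remaining 8 MLPH sites had, of the 3 replicate lists, peaks of replicates 1 and 2 only. Their fold ran between 3.13 and 11.2 in replicate 1 and between 4.08 and 17.2 in replicate 2. The highest of each list belonged to different sites, chr2:238410515-238411370 in replicate 1 and chr2:238397236-238399052 in replicate 2. Summits of the pair differed by 23 bp to 794 bp over the 11 sites of the window, and the widest difference was at chr2:238390418-238392314, which is 1897 bp long. Of the 8 regions seen in a single library, 4 were from replicate 1, 3 from replicate 2 and 1 from replicate 3, the last with a fold of 4.64.

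MSMB had its 1 replicated site at chr10:51564620-51566115, present in all 3 libraries. The fold was 9.62 for replicate 1, 17.5 for replicate 2 and 3.86 for replicate 3, with 13.6 in the list tied to no library. These values lie in the top 14.4%, 10.6% and 77.0% of the replicate lists. Against IgG it had a fold of 3.20 and a −log10 q of 1.01. The summits of replicates 1 and 2 were 32 bp apart. The other region, chr10:51530757-51531155, had a fold of 6.70 in replicate 2 and 6.20 in the list tied to no library. Of stretches of 100 kb, 37.2% held at least 1 replicated site.

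TET2 also had 1 replicated site, chr4:106067354-106068995, and it too was present in all 3 libraries. The fold was 12.7 for replicate 1, 14.4 for replicate 2 and 5.31 for replicate 3, in the top 6.47%, 15.8% and 20.3% of the lists. The list tied to no library had 11.1, and the IgG comparison 2.57 with a −log10 q of 0. It ranked higher than the MSMB site in replicates 1 and 3 and lower in replicate 2. The other 2 TET2 regions were weak peaks of replicate 2, with a fold of 5.47 and 3.08. The first of them recurred with 4.89 in the list tied to no library. Of stretches of 210 kb, 52.3% held at least 1 replicated site.

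JAZF1 had 3 replicated sites among 12 regions (25.0%, 5.49 to 57.2), a share whose interval held that of all merged regions. The 3 sites had peaks of replicates 1 and 2 and none of replicate 3. The site chr7:27975178-27976047 had a fold of 3.40 in replicate 1 and 8.07 in replicate 2, at the top 37.7% of the replicate 2 list, with 6.57 in the list tied to no library. The neighbouring site chr7:27976749-27977184, 0.701 kb away, had 2.73 in replicate 1 and 4.93 in replicate 2. The third, chr7:28218668-28219534, lay 241 kb further on and had 4.48 in replicate 1 and 4.18 in replicate 2, with summits 339 bp apart. All 3 ranked in the weaker part of the replicate 1 list, between its top 53.1% and 93.0%. Of the 9 regions seen in a single library, 6 were from replicate 2 with a fold of 3.83 to 5.24, 1 of which recurred in the list tied to no library, and 3 from replicate 3 with 3.35 to 4.80. No JAZF1 site had an IgG peak, and 40.8% of stretches of 370 kb held at least 3 replicated sites.

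MYEOV had 1 replicated site, chr11:69045718-69046386, with a fold of 2.86 in replicate 1 and 7.91 in replicate 2. In replicate 1 the peak was 171 bp long and among the weakest, at the top 90.5% of the list, and in replicate 2 it stood at the top 38.9%. The summits lay 100 bp apart, and neither the IgG list nor the list tied to no library had a peak there. The 3 replicate 3 peaks of this window, starting at 68928443, 68933755 and 69059504, had a fold of 4.20, 3.12 and 4.79 and lay in no other list. Of stretches of 200 kb, 51.3% held at least 1 replicated site.

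RFX6 had 1 peak in any list, chr6:117253407-117254025, in replicate 2 against input. It was 619 bp long, with a fold of 3.65 and a −log10 q of 2.18. By fold it ranked 41928th of 45216. The nearest replicated sites lay 147 kb before and 503 kb after the window. Among all stretches of 150 kb, 54.4% also held 0 replicated sites. Among those with a peak in a replicate list, as the RFX6 window has, the share was 37.1%.

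The SOX9 window had its first replicated site 1117 kb from its start, and all 3 of its replicated sites lay in the remaining 33.0 kb. The split was set at the first replicated site, so the lack of replicated sites before it follows from the split. The first 1117 kb held 8 peaks of replicate 3, 1 of replicate 1, 1 of the list tied to no library and 0 of replicate 2 against input or IgG. The last 33.0 kb held 3 peaks of replicate 1, 4 of replicate 2, 3 of the list tied to no library, 2 against IgG and 0 of replicate 3. None of the 8 replicate 3 peaks of the window shared sequence with another library, and over its whole list 30.8% of peaks did. The 8 replicate 3 peaks were 145 to 446 bp long, with a fold of 2.88 to 5.13. Among stretches of 1150 kb, 34.9% held at most 3 replicated sites, and the median was 7.

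The main SOX9 site, chr17:70117022-70118629, had a fold of 8.51 in replicate 1 and 18.4 in replicate 2, with 14.8 in the list tied to no library and 3.17 against IgG with a −log10 q of 0. It ranked in the top 19.0% and 9.38% of the replicate lists, and the summits lay 76 bp apart. A pair of weaker sites followed 28.1 kb later. The site chr17:70146768-70147750 had 2.75 in replicate 1 and 6.22 in replicate 2, and chr17:70147896-70148627 had 5.94 and 5.33. Their summits in replicates 1 and 2 lay 245 bp and 160 bp apart.

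**Figure D3:**
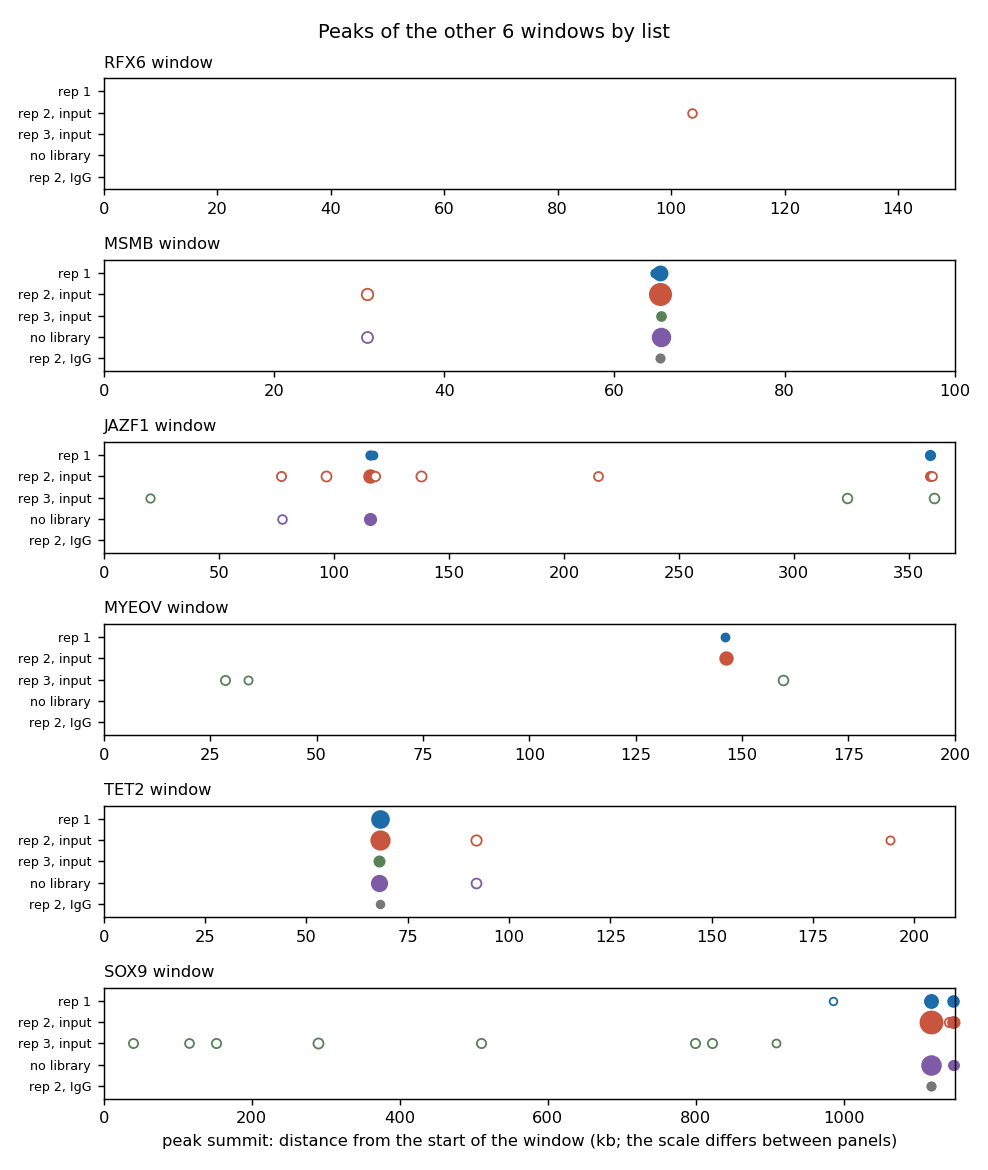
Peaks of the 6 windows other than MLPH, 1 row per list, at the distance of the summit from the window start in kb (horizontal axis; its scale differs between panels). The diameter of a circle grows with the authors' fold enrichment, filled circles lie in replicated sites and open circles do not. MSMB and TET2 each have 1 column of filled circles in all 5 lists, and the SOX9 window has 8 open circles of replicate 3 and filled ones in its last 33.0 kb.

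Across the 20 replicated sites, 3 stood in the top 10% of both replicate 1 and replicate 2 by fold, and all 3 were at MLPH. The 4 sites of all 3 libraries ranked in the top 2.36% to 14.4% of replicate 1 and in the top 3.39% to 15.8% of replicate 2. In replicate 3 the same 4 ranked between the top 17.1% and 77.0%. At the other end, 9 of the 20 sites lay in the weaker 50% of replicate 1 by fold: 4 of the 11 MLPH sites, all 3 JAZF1 sites, 1 of the 3 SOX9 sites and the MYEOV site. In replicate 2, 2 sites, 1 at MLPH and 1 at JAZF1, lay below the top 80%. The same ranks were not counted over all replicated sites, so these counts have no background and describe the 20 sites only.

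**Figure D4:**
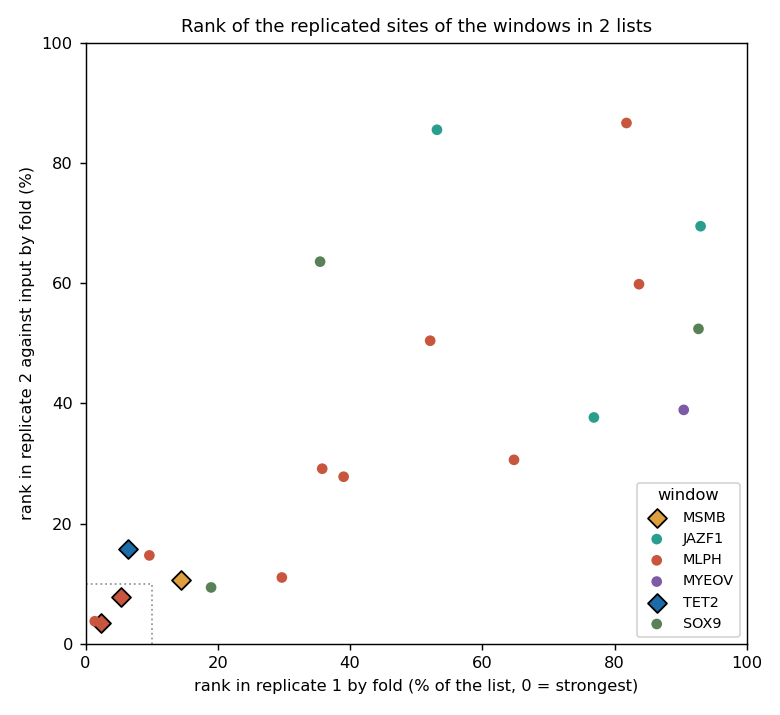
Rank by fold enrichment of the 20 replicated sites in replicate 1 (horizontal axis) and in replicate 2 against input (vertical axis), each as a percent of its own list with 0 the strongest. Colours are windows, diamonds are the 4 sites of all 3 libraries (2 of them at MLPH), and the dotted lines enclose the top 10% of both lists, where 3 MLPH sites lie.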

How the data were processed

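The values are peak lists of HOXB13-K13ac ChIP-seq in C4-2B cells, 1 list or more for each of 3 libraries. The tools listed, per the submitters' processing notes, are MACS2, Bowtie2, BWA and CASAVA 1.4, with GRCh37 and hg19 as builds. What each tool did, at which threshold and on which pools of reads was not given in sources used here. Each deposited peak has a fold enrichment at the summit, a ratio the authors' peak caller gave over the control. The −log10 p and the −log10 q of each peak are as deposited by the authors, and no p-value was computed here. The fold, −log10 p and −log10 q were used only to describe, rank or filter peaks within a list, since the lists hold no reads and depth is unknown. A shallower library or another control can give fewer, narrower and weaker peaks, so counts are not compared across lists by a test.

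Lists were tied to libraries by the spelling in the labels alone. Replicates 1 and 3 differ there by 1 character, and if they were exchanged, each list would keep its values but carry the other replicate number and library series. All 6 lists were used, each for its peak positions, peak names and summits and for its fold, −log10 p and −log10 q.

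Members and lists were chosen with earlier results of these data known. Peaks shared sequence when at least 1 bp was common. Replicated sites 10 kb apart or less were joined into runs, and runs of 5 or more sites are called clusters. Named by rule were the sites of all 3 libraries, up to 3 replicated sites per window with the highest lower fold of replicates 1 and 2, the highest peak of each list, and the longest run of each window. Other sites were named after their values were seen. Intervals are exact 95% binomial (Clopper-Pearson) or Poisson intervals and cover counting error only. Alternatives changed the overlap rule, the q threshold, list length, window membership, joining distance and the libraries used.

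Calculations ran on SciPy 1.17.1, pandas 2.3.3 and NumPy 2.4.6 under Python 3.11.15, with figures from matplotlib 3.10.9. Counts per window equalled those of bedtools 2.31.1 in 42 of 42 comparisons, and the code was tested on simulated lists. Gene neighbours and promoters came from RefSeq on GRCh38.p14 by symbol. No hg19 sequence or annotation was used here, so sites have positions but no exon, intron, UTR or motif, and no bases of a site are printed.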

Additional observations from a re-analysis of the deposited data

Results flagged for a closer look

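The list tied to no library was left out of the replicate comparison. Whether it shares reads with a replicate list is unknown, so a peak that recurs in it is not counted as a separate replication. At TET2, its peak chr4:106091623-106091932 had the same start and end as a peak of replicate 2 against input. It had 24 peaks in the 7 windows, of which 14 lay at MLPH and 4 at SOX9. No control sample has a list of its own to set beside it. Of the 24 peaks, 19 lay in replicated sites (79.2%, exact 95% binomial interval 57.8 to 92.9), against 77.8% of its 36205 peaks. Its 4 SOX9 peaks included 1 of 190 bp with a fold of 3.72 that lay in no replicate list. Which sample the list belongs to was not tested.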

How the results depend on the processing

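Of 55 alternative values for the counts and medians over the windows, 31 stayed within the limits set (1.5 times the main count, or 0.909 for a median fold) and 24 moved. The limits measure the size of a change and not its direction, and some comparisons with the whole data changed side. The share of sites with an IgG peak, 40% against 23.2% of all replicated sites, became 5% against 5.55% at a q of 0.05 or less. The median fold of the list tied to no library, 6.81 against 6.39 over its whole list, became 5.55 without the MLPH window. The cause of a change was not tested unless the setting removes peaks by itself. The 20 replicated sites became 8 with the strongest peaks of each list taken to equal length, and 4 to 20 when a replicate was left out (4 when this was replicate 1 or 2, and 20 when it was replicate 3). The 4 sites of all 3 libraries became 0 with a share of 0.5 of both widths, 0 with a limit of 5 on −log10 q, and 16 with the list tied to no library in place of replicate 3. The 8 sites with an IgG peak became 1 at a q of 0.05 or less. The 1 cluster of 5 or more sites became 0 when joined at 5 kb, 2 at 20 kb and 0 with a limit of 5 on −log10 q. At that level replicate 2 against input held 23 of its 35 peaks and replicate 3 and the IgG list 0, so those 2 lists have no median there, while the median fold became 8.07 in replicate 2 and 10.03 in the list tied to no library. Leaving out the MLPH window, a choice made after seeing the data like the q limit on the list tied to no library, gave 9 replicated sites, 2 of all 3 libraries, 3 with an IgG peak and 6 in the list tied to no library. It also gave 11 peaks in replicate 1, 20 in replicate 2 against input, 4 against IgG and 10 in the list tied to no library, whose median fold became 5.55. For single windows, 52 values stayed and 18 moved. No paired analysis was possible because peaks were called on HOXB13-K13ac libraries and the IgG and input libraries served as controls, with no list to pair. Depth is unknown, so the missing peaks of replicate 3 and of RFX6 cannot be told from a lack of reads, and windows with 1 to 3 sites give wide intervals.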
